A study of Mus musculus with 11 samples.

Results

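Immediate early genes are genes that a cell transcribes within minutes of a stimulus without first making new protein. 10 of them were followed in the aorta of old mice, chosen by name: Fos, Fosb, Jun, Junb, Egr1, Egr2, Egr3, Atf3, Nr4a1 and Ier2. They are 10 of the 36413 gene names on the array, and each was measured by 1 probe, which lay 10 times on each array for Fos and 1 time for the others. The tissue was the descending aorta of male C57BL/6 mice aged 20 months. The old nitrate treated group held 5 mice, given NaNO3 in the drinking water at 1 g/L for 8 weeks. The old control group held 6 mice of the same strain, sex and age. According to the paper the controls drank sodium chloride, whereas the sample labels name only a control and describe these arrays as a reanalysis of earlier ones. Each array held RNA of 1 mouse, labeled with Cy3. Another array of a nitrate treated mouse is not analysed here. P values therefore measure the spread between these mice.

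In the vessel wall, growth factors, stretch and stress reach these genes through mitogen-activated protein kinases, calcium and cyclic AMP. The kinases act on the serum response factor, which binds the CArG box, and on its ternary complex partners. They also act on CREB, which binds the cyclic AMP response element (CRE). The proteins made are mostly transcription factors. Fos and Fosb pair with Jun or Junb to form AP-1, the Egr proteins are zinc finger factors that bind GC-rich sites, Atf3 is a stress-induced member of the CREB family that often represses, Nr4a1 is an orphan nuclear receptor, and Ier2 is a small nuclear protein. Their transcripts are short-lived, and phosphatases such as Dusp1 and RNA-binding proteins such as Zfp36 end the response.

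The 250 bases upstream of the transcription start are shown for 5 members, from RefSeq on GRCm38.p6, 5′ to 3′ along the gene. These 5 were chosen because they stand for the patterns described further on: Fos and Junb varied together, Nr4a1 and Atf3 varied together, and Egr2 had high coefficients with Fos, Nr4a1 and Atf3 but not with Junb. Capitals mark the short CRE motif TGACG in either direction (CGTCA on the printed strand) and the CArG box.
Fos, chr12:85473640-85473889, plus strand: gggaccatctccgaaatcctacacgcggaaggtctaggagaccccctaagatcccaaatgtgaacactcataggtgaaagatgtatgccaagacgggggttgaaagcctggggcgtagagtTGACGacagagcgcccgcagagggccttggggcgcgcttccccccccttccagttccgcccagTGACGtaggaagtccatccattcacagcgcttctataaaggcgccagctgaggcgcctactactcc
Junb, chr8:84978749-84978998, minus strand: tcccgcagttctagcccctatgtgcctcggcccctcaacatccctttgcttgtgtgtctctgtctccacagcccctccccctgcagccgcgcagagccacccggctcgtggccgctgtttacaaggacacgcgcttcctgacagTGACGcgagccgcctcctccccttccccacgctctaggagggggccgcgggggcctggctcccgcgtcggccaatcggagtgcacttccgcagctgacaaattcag
Egr2, chr10:67537619-67537868, plus strand: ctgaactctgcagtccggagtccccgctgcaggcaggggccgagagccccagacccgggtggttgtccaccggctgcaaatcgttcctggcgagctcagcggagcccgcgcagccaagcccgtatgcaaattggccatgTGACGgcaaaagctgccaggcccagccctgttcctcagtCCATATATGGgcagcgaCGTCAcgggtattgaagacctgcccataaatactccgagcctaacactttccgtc
Nr4a1, chr15:101266596-101266845, plus strand: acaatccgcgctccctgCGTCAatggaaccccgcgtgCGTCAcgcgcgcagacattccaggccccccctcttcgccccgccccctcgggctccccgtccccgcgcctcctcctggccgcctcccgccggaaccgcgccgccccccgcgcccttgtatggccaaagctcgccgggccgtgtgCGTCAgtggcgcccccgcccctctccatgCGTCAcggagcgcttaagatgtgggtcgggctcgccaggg
Atf3, chr1:191183334-191183583, minus strand: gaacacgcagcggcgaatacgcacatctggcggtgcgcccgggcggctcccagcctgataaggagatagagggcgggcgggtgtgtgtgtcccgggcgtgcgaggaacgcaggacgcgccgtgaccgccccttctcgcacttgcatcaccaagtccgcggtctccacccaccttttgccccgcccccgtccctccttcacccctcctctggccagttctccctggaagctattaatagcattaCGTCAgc
Windows were at hand for 7 members, namely Fos, Fosb, Jun, Junb, Egr2, Atf3 and Nr4a1, and 6 of these 7 held the short CRE motif. Among all 32851 windows of this length in the table, 17.8% held it. This share counts windows, whereas the 6 of 7 counts genes with the motif in any window. The 7 members had 11 windows, and some of the Egr2 windows lacked the motif. Nr4a1 had 4 copies, Fos had 2, and the Egr2 window shown had 2. Jun was the member without a copy. The CArG box, searched as CC, 6 letters that are each A or T, and GG, was found at Egr2 alone. It was in the windows of 4 of the 5 listed Egr2 starts and 72 bases before the start shown, against 1.47% of all windows. Several of these Egr2 windows overlap and hold the same box. Boxes with a mismatch or farther upstream were not searched, so the other members may have them. The full CRE, TGACGTCA, which holds the short motif on both strands, was in none of the windows of members and in 1.55% of all windows. The AP-1 site TGANTCA was in none and in 6.75% of all windows. The EGR site GCGNGGGCG was found at Fosb and Nr4a1, and in 4.70% of all windows. All motifs were searched on both strands. A match describes letters in the window and does not show that a factor binds there.

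The arrays lay on 3 slides, each with both groups, and 4 of the 11 were scanned on a later day, all on slide 3. All controls lay in column 3 of a slide and no nitrate array did, so column and treatment cannot be told apart. Each array had between 24763 and 28672 probes above background, with no saturated spot and with at most 186 flagged spots of 59305. The markers of smooth muscle, the main cell type of the aorta, were all detected (7 of 7), and their summed log2 signal lay between 19.04 and 19.43 in controls and between 19.37 and 19.43 in nitrate treated mice. Heart muscle markers, 8 of 8 detected, differed between arrays: their mean relative to all mice was 3.09 in control 1 and 3.69 in nitrate treated mouse 4 on the log2 scale, and between -1.72 and 0.62 in the other 9. Both arrays were kept, and several results are also given without them.

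Detection required at least 5 arrays of either group on which the scanner software marked the probe as found and as well above background. 9 of the 10 members passed. Egr3 was not well above background on any of the 11 arrays and is not described further. All 11 arrays had Junb well above background, but its spot also counted as found on 6 control arrays and on 1 nitrate array only, so it passed through the control group. Nr4a1, marked in this way on 4 nitrate and 6 control arrays, also passed through the control group.

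None of the 9 detected members was differentially expressed between old nitrate treated and old control mice. With limma's moderated test, where a call needs P under 0.05 before adjustment and more than a 1.2-fold change, 0 members were higher and 0 were lower, while 9.00% of all 23633 detected probes were called. The count was also 0 without the limit on fold change, and 0 with a two-sample test without moderation. In every one of the 9 the ranges of both groups overlapped. Over all detected probes, 2.75% had groups without overlap. The log2 difference, nitrate minus control, was above 0 for 4 members and below 0 for 5, with a median of -0.15, against 0.01 over all detected probes. Within each group, the signals differed widely from mouse to mouse. The signal of Fos differed 6.12-fold between the lowest and the highest control and 6.44-fold between the lowest and the highest nitrate treated mouse. For Atf3 these folds were 7.13 and 7.52, and for Nr4a1 5.02 and 5.35. Over all 11 mice Fos spanned 13.4-fold, but 6.12-fold without nitrate treated mouse 4.

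**Figure D1:**
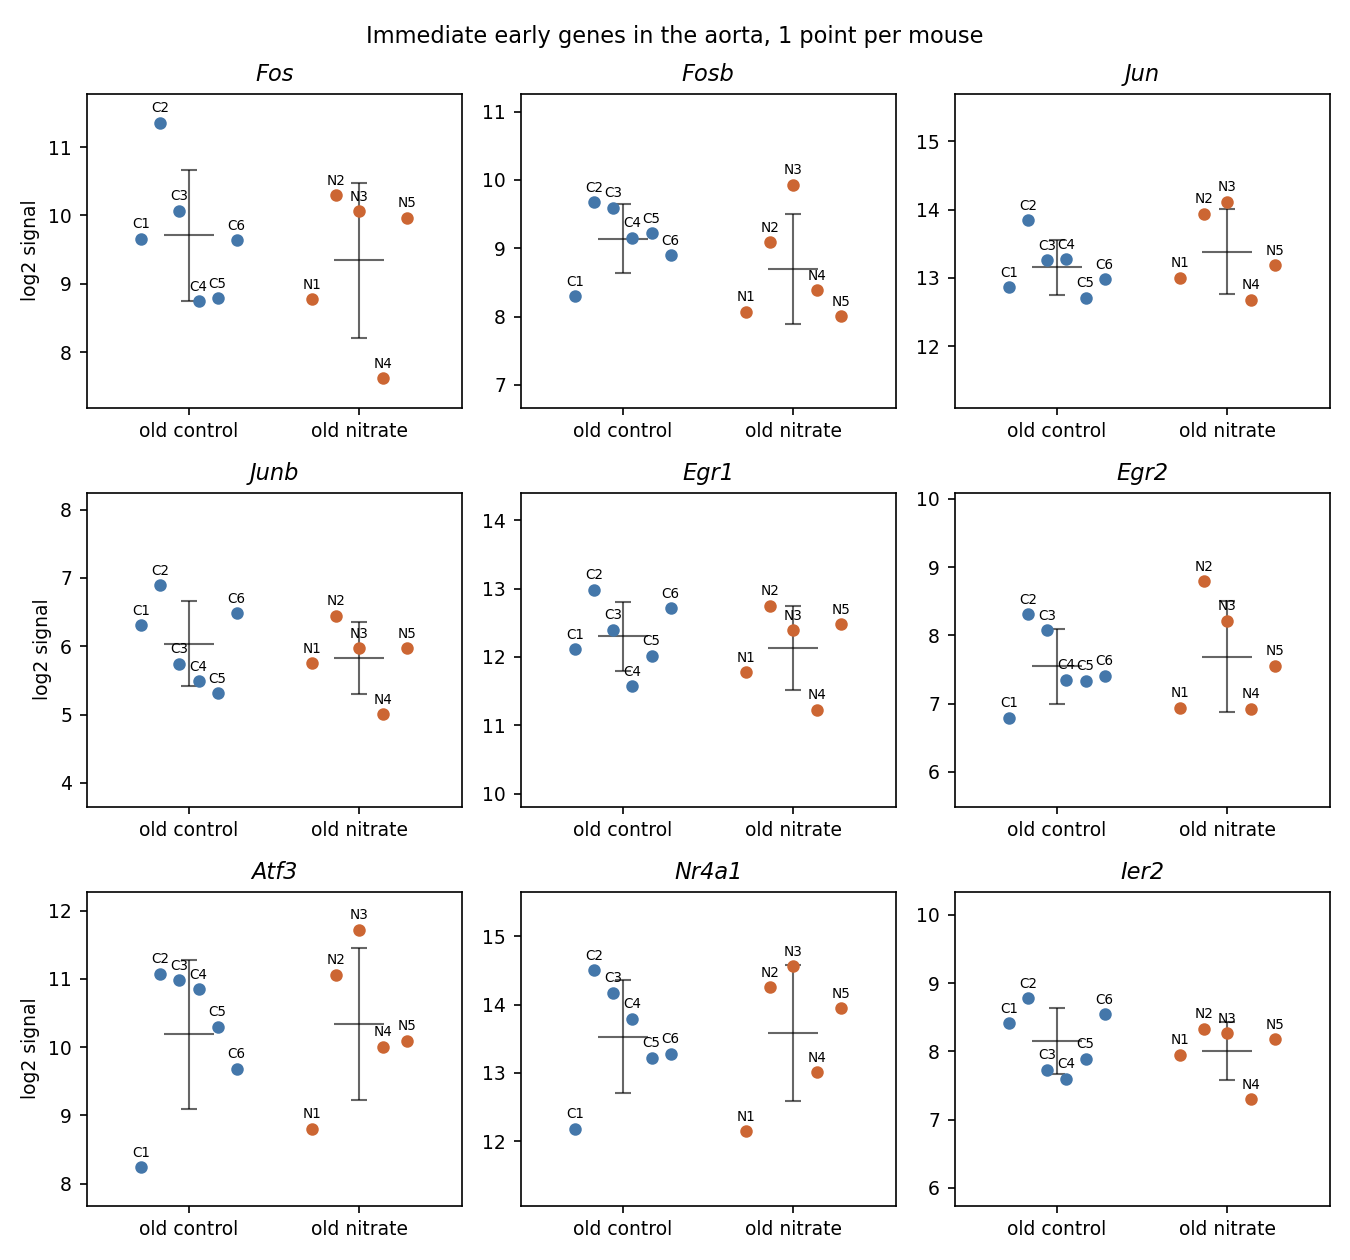
Quantile normalized log2 signal (vertical axis, each panel spanning the same number of log2 units) of the 9 detected immediate early genes, with 1 point per mouse, labelled C1 to C6 for old controls and N1 to N5 for old nitrate treated mice; horizontal and vertical lines give the mean and SD of each group. The groups overlap in every panel, and the points of Fos, Atf3 and Nr4a1 are the most scattered.

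Fos is the partner of Jun in AP-1. In controls 1 to 6 its log2 signal was 9.66, 11.36, 10.07, 8.74, 8.79 and 9.64. In nitrate treated mice 1 to 5 it was 8.78, 10.30, 10.06, 7.61 and 9.97. Control 2 was far above all other mice and nitrate treated mouse 4 far below them. The group means were 9.71 ± 0.96 (SD, n = 6) in controls and 9.34 ± 1.13 (SD, n = 5) after nitrate. The difference of -0.37 ± 0.55 (SE, 95% interval -1.57 to 0.84) gave P = 0.520 and an adjusted P = 0.804 in limma's moderated test, and P = 0.591 in an exact, two-sided permutation test over the 462 divisions of the mice, which can give no P below 0.00216. The repeated Fos spots of an array had an SD of 0.03 to 0.08 log2 units, which covers spot noise alone and not labeling, hybridization or slide.

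Fosb can replace Fos as the partner of Jun proteins. Its log2 signal was 8.30, 9.68, 9.59, 9.15, 9.22 and 8.90 in controls 1 to 6. It was 8.07, 9.08, 9.93, 8.39 and 8.00 in nitrate treated mice 1 to 5. Nitrate treated mice 1 and 5 lay below the lowest control, and nitrate treated mouse 3 lay above the highest. The difference of -0.44 ± 0.35 (SE, 95% interval -1.21 to 0.32) had P = 0.229 and an adjusted P = 0.587 in limma's test and P = 0.281 in the exact permutation test. Fosb was the single member whose call turned on 1 mouse: without nitrate treated mouse 3 it fell by 0.75 with an unadjusted P of 0.0219 in limma's test.

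Jun, the common partner in AP-1, had log2 signals of 12.86, 13.84, 13.26, 13.27, 12.71 and 12.98 in controls 1 to 6 and of 13.00, 13.94, 14.12, 12.68 and 13.18 in nitrate treated mice 1 to 5. Junb, a Jun protein that often restrains growth, had 6.31, 6.89, 5.74, 5.49, 5.32 and 6.48 in controls and 5.75, 6.44, 5.97, 5.01 and 5.97 after nitrate. Nitrate treated mice 2 and 3 were the highest of all mice for Jun, and control 2 was the highest for Junb. The differences were 0.23 ± 0.27 (SE) for Jun and -0.21 ± 0.31 (SE) for Junb, with exact permutation P values of 0.461 and 0.561. Their adjusted P values in limma's test were 0.739 and 0.796.

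Egr1 is the best known Egr factor of the vessel wall, induced by injury and shear stress. Its log2 signal was 12.11, 12.99, 12.40, 11.58, 12.02 and 12.71 in controls 1 to 6 and 11.78, 12.75, 12.39, 11.23 and 12.48 in nitrate treated mice 1 to 5. Egr2, a factor of the same family, had 6.79, 8.31, 8.08, 7.35, 7.34 and 7.41 in controls and 6.94, 8.79, 8.21, 6.93 and 7.56 after nitrate. For Egr1 the extremes were the same mice as for Fos, whereas for Egr2 nitrate treated mouse 2 was highest and control 1 lowest. The difference was -0.17 ± 0.30 (SE, exact permutation P = 0.615) for Egr1 and 0.14 ± 0.36 (SE, exact permutation P = 0.745) for Egr2, with adjusted P values of 0.831 and 0.901 in limma's test.

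Atf3 had the largest pooled SD of the 9, at 1.1 log2 units. Its log2 signal was 8.24, 11.07, 10.98, 10.85, 10.30 and 9.68 in controls 1 to 6. It was 8.81, 11.06, 11.72, 10.005 and 10.09 in nitrate treated mice 1 to 5. Control 1 and nitrate treated mouse 1 stood below all others, in opposite groups. The group means, 10.19 ± 1.09 (SD, n = 6) and 10.34 ± 1.11 (SD, n = 5), differed by 0.15 ± 0.58 (SE, 95% interval -1.12 to 1.42), with P = 0.80 in limma's test and P = 0.838 in the exact permutation test.

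Nr4a1 showed the same mice at the low end. In controls 1 to 6 its log2 signal was 12.18, 14.51, 14.18, 13.80, 13.22 and 13.28. In nitrate treated mice 1 to 5 it was 12.15, 14.26, 14.57, 13.01 and 13.95. The means nearly coincided, with a difference of 0.06 ± 0.48 (SE, 95% interval -0.99 to 1.1), P = 0.906 in limma's test and P = 0.913 in the exact permutation test. Ier2 had the smallest pooled SD of the 9, and Jun the smallest range over the mice. It had 8.41, 8.78, 7.73, 7.60, 7.89 and 8.54 in controls and 7.95, 8.33, 8.27, 7.30 and 8.18 after nitrate, a difference of -0.15 ± 0.25 (SE, exact permutation P = 0.589, limma adjusted P = 0.819).

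**Figure D2:**
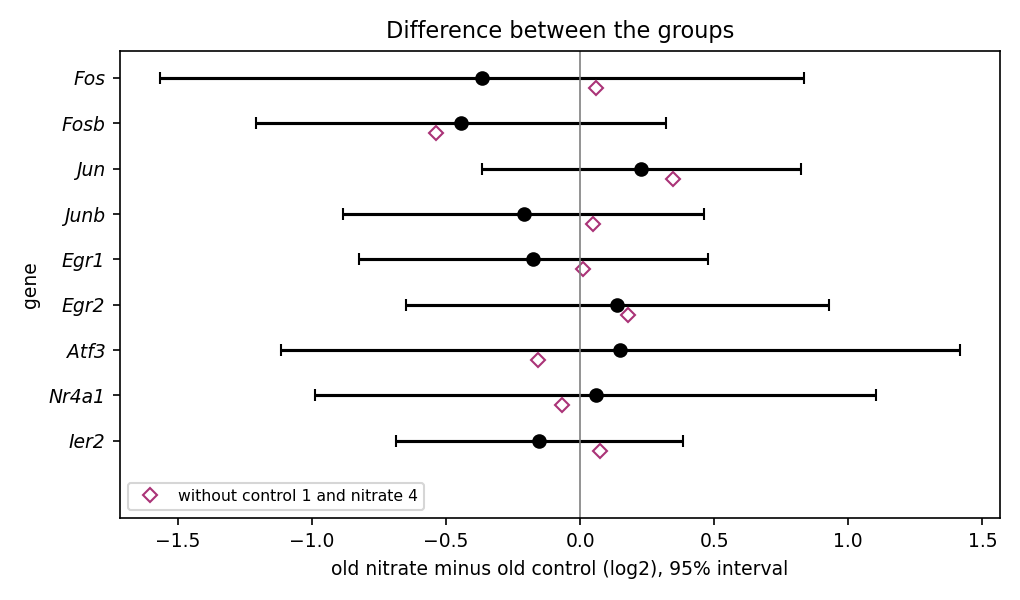
Difference in log2 signal, old nitrate minus old control (horizontal axis), for the 9 detected genes with all 11 mice (filled points, bars give the 95% interval from limma) and without control 1 and nitrate treated mouse 4 (open diamonds). Every interval includes 0, from -1.57 to 0.84 for Fos to -0.69 to 0.38 for Ier2.

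The direction of most differences rested on few mice. Without control 1 and nitrate treated mouse 4, the 2 arrays with high heart muscle markers, the difference changed sign for 6 of the 9 members, for example to 0.057 for Fos and to -0.16 for Atf3, and the median became 0.049. Without nitrate treated mouse 4 alone the median was 0.067. The part of heart muscle in the signals of members was not tested, and in bulk tissue fewer cells of a type and less RNA per cell cannot be told apart. Slides differed as well. On slide 1 the difference was below 0 for 6 members and above 0 for 3. On slide 2, with nitrate treated mouse 3 against 2 controls, it was above 0 for 8 of 9, up to 1.45 for Atf3. On slide 3 it was below 0 for all 9, down to -1.21 for Fosb. With slide as a block the difference was -0.39 for Fos and 0.12 for Nr4a1, and 0 members were called.

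The spread between mice of 1 group was large for every detected member. Their median pooled SD was 0.66 log2 units, against 0.18 for all detected probes, and each of the 9 lay above the 90th percentile of 0.37. Only 0.173% of detected probes had a larger pooled SD than Atf3, 0.190% a larger one than Fos and 0.347% a larger one than Nr4a1. The share was 1.07% for Egr2, 1.28% for Fosb, 2.01% for Junb, 2.31% for Egr1, 3.25% for Jun and 5.01% for Ier2. Dim probes varied more than bright ones, so each member was also set beside probes within 0.50 log2 units of its own mean signal. Among the 744 such probes for Nr4a1 none had a larger pooled SD, and for the other 8 members the share was between 0.164% for Atf3 and 2.99% for Ier2. The median SD of the 9 was 0.55 in controls and 0.81 in nitrate treated mice, and the SD was larger in controls for 2 members, Junb and Ier2. Over all detected probes the median SDs were 0.18 and 0.16. Other lists also spread widely, with a median pooled SD of 2.06 for heart muscle markers, 0.62 for blood cells and platelets, 0.55 for brown adipocyte markers and 0.41 for clock genes. Whether the spread of members differed between the groups was not tested.

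**Figure D3:**
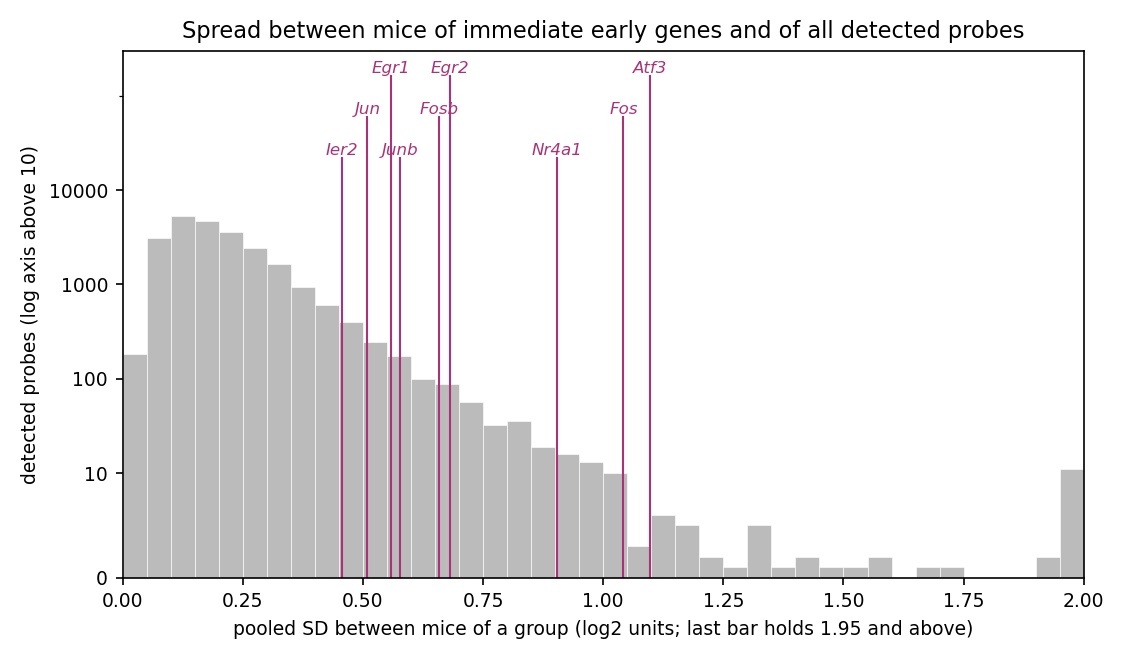
Number of detected probes (vertical axis, logarithmic above 10) by pooled SD of the log2 signal between mice of a group (horizontal axis), with vertical lines at the 9 detected immediate early genes; the last bar holds all larger values. All 9 lines lie to the right of the bulk of the probes, from 0.46 for Ier2 to 1.1 for Atf3.

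A few mice were high or low across the genes. Control 2 was among the 3 highest of the 11 mice for all 9 members and the highest for 4. Nitrate treated mouse 2 was among the 3 highest for 7 members, and nitrate treated mouse 3 for 5. At the other end, nitrate treated mouse 4 was among the 3 lowest for 7 members and the lowest for 5, nitrate treated mouse 1 among the 3 lowest for 6 and control 1 for 5. Both groups thus held mice with high and mice with low signals. Control 1 was low in a subset of genes: it lay 2.01 below the mean of all mice for Atf3, 1.37 below for Nr4a1 and 0.81 below for Egr2 on the log2 scale, but 0.37 above it for Junb and 0.32 above it for Ier2.

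**Figure D4:**
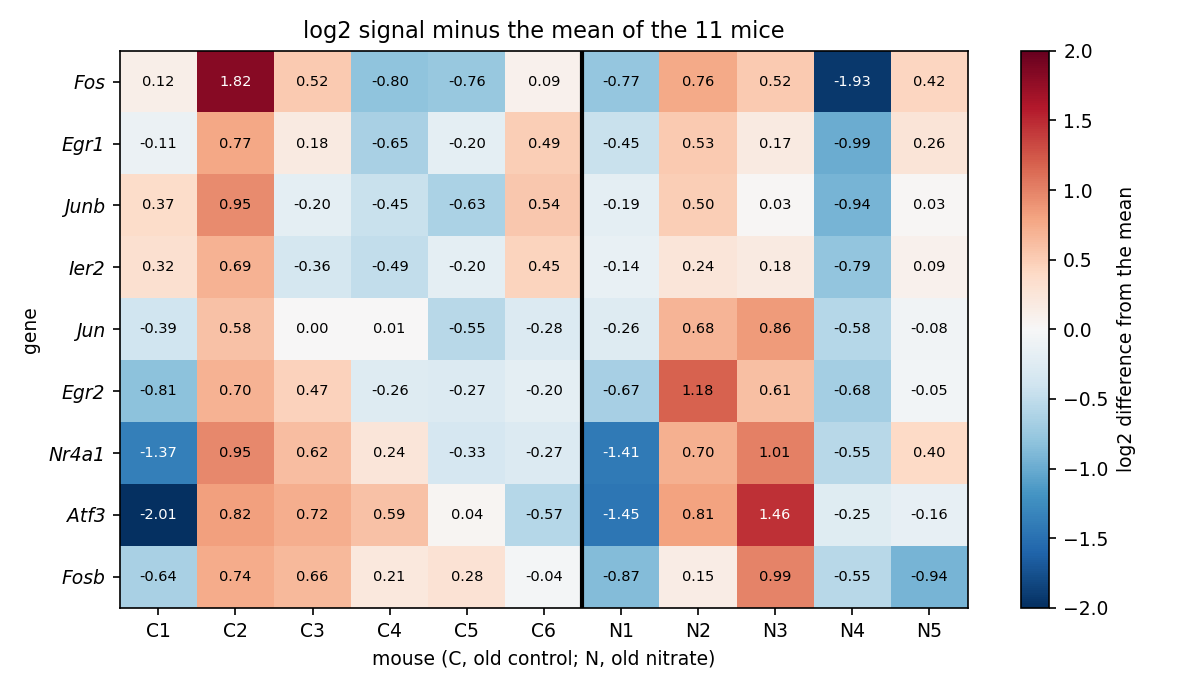
Log2 signal of each detected immediate early gene (rows) in each mouse (columns; C, old control; N, old nitrate) minus its mean over the 11 mice, with the value in each cell. Column C2 is above the mean in all 9 rows and N4 below it in all 9, while C1 runs from 0.37 for Junb to -2.01 for Atf3.

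To measure how the genes varied together, group means were subtracted and each of the 36 pairs was correlated over the 11 mice, with values shuffled within groups 100000 times for a permutation P. All 36 Pearson coefficients were above 0, and 19 had a Benjamini-Hochberg adjusted P value under 0.05 over the 36. By Spearman's rho 20 passed. Of the 8 relations with Fos, 5 passed, whether adjusted over the 8 or the 36: those with Egr1, Junb, Ier2, Jun and Egr2. Several arrays share a slide, so the mice are not fully independent measurements.

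From the coefficients, after they had been seen, 2 sets of genes were read. Egr2 and Jun were put in neither, although Egr2 with Nr4a1 and Jun with Egr2, both at r = 0.88, were among the strongest pairs. The first set, Fos, Egr1, Junb and Ier2, had coefficients of 0.81 to 0.95 with each other. It was not uniform over the mice, since control 3 lay above the mean of all mice for Fos and Egr1 and below it for Junb and Ier2. Fos and Egr1 had r = 0.93 (permutation P = 0.00043, adjusted P = 0.00468) and rho = 0.89 (permutation P = 0.00092), and without control 2 and nitrate treated mouse 4, the mice farthest from the Fos median, r was 0.85. Junb and Ier2 had r = 0.95 (permutation P = 0.00052, adjusted P = 0.00468) and rho = 0.95 (permutation P = 0.00031), and r was 0.88 without the same 2 mice. These genes are also neighbours: their probes lie 316 kb apart in mm9, Ier2 at chr8:87186214-87186273 and Junb at chr8:87501881-87501940. Fos with Junb, at r = 0.87 (permutation P = 0.0008) and rho = 0.82 (permutation P = 0.00261), fell to r = 0.65 without the 2 mice, and Fos with Ier2 from 0.81 to 0.49, so that these relations leaned on the extremes.

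Atf3, Nr4a1 and Fosb formed the other set. Atf3 and Nr4a1 had r = 0.94 (permutation P = 3e-05, adjusted P = 0.00108) and rho = 0.92 (permutation P = 0.00025). Without control 1 and nitrate treated mouse 1, the 2 low mice, r was 0.85. Atf3 and Fosb had r = 0.89 (permutation P = 0.00046, adjusted P = 0.00468) and rho = 0.93 (permutation P = 0.00032), and r was 0.92 without the 2 mice farthest from the Fosb median. Between the sets, Atf3 had r = 0.00 with Ier2, 0.06 with Junb and 0.40 with Fos, none of which passed after adjustment (adjusted P = 0.994, 0.898 and 0.325, permutation test). The highest between the sets was that of Fos with Nr4a1, at r = 0.63 (adjusted P = 0.0977, permutation test), and it passed by Spearman's rho, at 0.75 (adjusted P = 0.0377, permutation test). Egr1 with Nr4a1 had r = 0.58. Egr2 and Jun passed with each of Fosb, Atf3 and Nr4a1, at r = 0.73 to 0.88. Of the first set they passed with Fos, at r = 0.78 and 0.81, and Egr2 passed with Egr1, at 0.76. Neither passed with Junb or Ier2, at r = 0.44 to 0.63, nor did Jun with Egr1, at 0.68. Whether the coefficients within the sets differed from those between them was not tested.

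**Figure D5:**
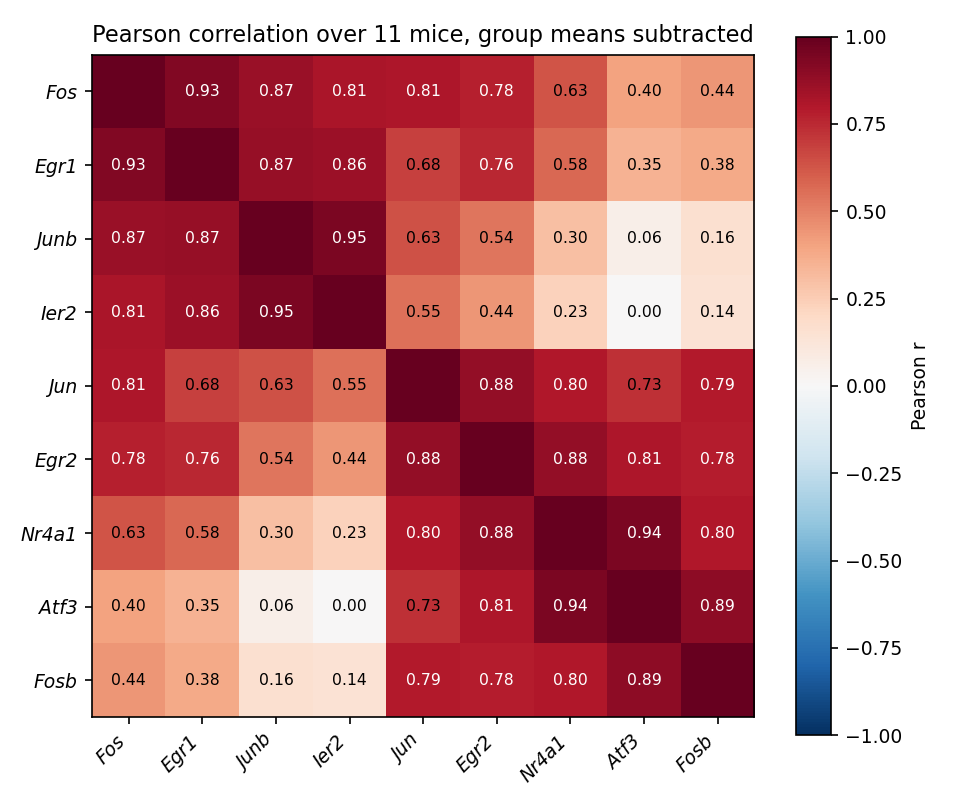
Pearson correlation between the 9 detected immediate early genes over 11 mice after group means were subtracted, as numbers and colour. Coefficients of 0.81 to 0.95 join Fos, Egr1, Junb and Ier2 at the upper left and of 0.80 to 0.94 join Nr4a1, Atf3 and Fosb at the lower right, with 0.00 to 0.63 between these sets.

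With slide means also removed, r was 0.93 for Fos with Egr1, 0.91 for Junb with Ier2 and 0.94 for Atf3 with Nr4a1. Between the sets it was higher than before, at 0.83 for Fos with Nr4a1, 0.62 for Fos with Atf3 and 0.70 for Egr1 with Nr4a1, so the sets were less distinct. Over the 7 mice of the first scan day r was 0.89, 0.96 and 0.98. Slides held 3 or 4 arrays each, too few for a coefficient within a slide. Without control 1 and nitrate treated mouse 4 the 3 coefficients were 0.90, 0.92 and 0.93, and 11 of the 36 pairs passed after adjustment. The sets were less distinct here too. Fos with Nr4a1, between the sets, had r = 0.75, above Fos with Ier2 at 0.74 and Fosb with Nr4a1 at 0.72 within them. Fos with Atf3 had 0.54, whereas Atf3 stayed low with Junb and Ier2, at 0.17 and 0.11. Without control 2 alone 9 passed.

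Among all other named genes, those most like Fos over the 11 mice were Btg2 (r = 0.95), Gm7482 (0.90), Mier2 (0.90), Irf4 (0.90), Eif2s1 (0.89), Zfp36 (0.88), Fam160b2 (0.87) and Cmtm7 (0.86), by Pearson correlation of group-centred log2 signals. Of all detected probes, 0.233% had r above 0.80 with Fos. Btg2, a restraint on cell division, and Zfp36, which speeds the decay of short-lived RNAs, differed widely between mice, with pooled SDs of 0.65 and 0.45. Gm7482 and Cmtm7 differed little, at 0.08 and 0.10. The genes most like Nr4a1 were looked up after its pattern had been seen. They were led by Angptl4 (r = 0.93), Slc25a25 (0.93) and Dusp10 (0.93).

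The wider early response program was described with 44 other rapidly induced genes, of which 39 were detected. 1 of them was called higher and 1 lower after nitrate. Per1, a clock gene that also responds to cyclic AMP, rose by 0.70 ± 0.31 (SE, limma P = 0.0445, adjusted P = 0.338, exact permutation P = 0.0779), from 11.36 ± 0.71 (SD, n = 6) to 12.05 ± 0.37 (SD, n = 5). Nfil3, a repressor tied to the clock, fell by 0.74 ± 0.30 (SE, limma P = 0.0304, adjusted P = 0.309, exact permutation P = 0.0584). Both are also on the list of 18 clock genes, where 11 of the 15 detected (73.3%, against 9.00% of all detected probes) were called, 7 higher and 4 lower. Among them Per3, Tef, Per2, Dbp and Hlf were higher by 0.72 to 1.22 on the log2 scale, and Npas2 and Arntl were lower, with differences of -0.95 and -1.24. Their adjusted P values in limma's test were 0.0997 to 0.298. Npas2 was well above background on 2 of 5 nitrate and 6 of 6 control arrays and so passed detection through the controls. The median difference of the 39 was -0.02 and their median pooled SD 0.41. Cyr61, a matrix protein induced by stretch, Arc and Ptgs2 had pooled SDs of 0.93, 0.85 and 0.76, near those of the members. The 2 called genes are 5.13% of those detected, below the 9.00% of all detected probes. That 9.00% belongs to the main fit, and no such share is given for the counts of other settings, here or for later lists. The count of 2 was not stable: it was 0 without nitrate treated mouse 2 or without control 2, 3 or 4, it was 1 without nitrate treated mouse 3 or 5 or without control 1, and it was 5 without control 1 and nitrate treated mouse 4.

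Feedback regulators, 21 of 27 detected, include phosphatases, Sprouty proteins and RNA-binding proteins that end the response. Among them 0 were higher and 1 was lower: Socs3, an inhibitor of cytokine signaling, fell by 0.35 ± 0.12 (SE, limma P = 0.0162, adjusted P = 0.271, exact permutation P = 0.0238). The share called, 4.76%, lay below the 9.00% of all detected probes. Their median difference was 0.07 and their median pooled SD 0.25. The count was 2 without nitrate treated mouse 1 or without control 3, 5 or 6, and 3 without nitrate treated mouse 2 or 3. The mean of this list followed Nr4a1 over the mice, at r = 0.92 (permutation P = 2e-05, adjusted P = 0.00068 over the 34 relations between 17 lists and Fos or Nr4a1) and rho = 0.95 (permutation P = 8e-05), and r was 0.94 without the 2 mice farthest from the Nr4a1 median. With Fos its r was 0.64 (permutation P = 0.0431, adjusted P = 0.194). Without control 1 and nitrate treated mouse 4 the coefficients were close, at 0.90 with Nr4a1 and 0.89 with Fos. The other rapidly induced genes also followed Nr4a1, at r = 0.85 (permutation P = 0.00218, adjusted P = 0.0371) and rho = 0.82 (permutation P = 0.00825, adjusted P = 0.0935), and r was 0.61 without the 2 mice. These were the 2 of 34 relations that passed by Pearson's r, and the second did not pass by Spearman's rho. The 34 relations were not planned in advance.

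Upstream regulators, the kinases and the factors of the CREB, serum response and MEF2 families, differed little between mice. Of 31 genes 30 were detected, with a median pooled SD of 0.15, below that of all detected probes. Among them 0 were higher and 1 was lower: Map2k7, a kinase that activates Jun kinases, fell by 0.30 ± 0.12 (SE, limma P = 0.0257, adjusted P = 0.298, exact permutation P = 0.0303), and the count was 2 without control 5. The count was 0 without control 1, without nitrate treated mouse 4, without both, with normexp background correction and with an offset of 16. The share called, 3.33%, lay below the 9.00% of all detected probes. Srf, the factor that binds the CArG box, had log2 means of 11.12 ± 0.17 (SD, n = 6) and 11.28 ± 0.06 (SD, n = 5), and Creb1 5.51 ± 0.26 and 5.55 ± 0.14. Of 15 target genes of AP-1 and Egr factors, 10 were detected and 1 was lower: Mmp9, a matrix-degrading enzyme, fell by 0.50 ± 0.15 (SE, limma P = 0.00555, adjusted P = 0.205, exact permutation P = 0.013). Mmp9 was well above background on 4 of 5 nitrate and 6 of 6 control arrays, so it passed detection through the controls, where it was higher. The share called, 10%, was near the 9.00% of all detected probes. Of 9 detected heat shock genes 1 was lower, Hsph1, and this share of 11.1% was also near it.

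Marker lists of other cell types were set beside Fos and Nr4a1. The heart muscle mean had r = -0.42 with Fos and -0.61 with Nr4a1 over the 11 mice (adjusted P = 0.522 and 0.194, permutation test). Without control 1 and nitrate treated mouse 4 these became -0.01 and -0.33, whereas without the 2 mice farthest from the median of each gene they were 0.15 and -0.82. With Fos, the blood cell and platelet mean, from 6 of 7 markers detected, and the Schwann cell mean, from 2 of 3, each had r = 0.61 (adjusted P = 0.194 for both, permutation test). Without the 2 mice farthest from the Fos median these were 0.38 and 0.10, and without control 1 and nitrate treated mouse 4 they were both 0.55. With Nr4a1 they had r = 0.11 and -0.02, which became 0.83 and 0.65 without the 2 mice farthest from its median. The blood cell mean relative to all mice was highest in controls 3 and 2, at 0.63 and 0.60 on the log2 scale. The skeletal muscle mean, from 3 of 5 markers detected, had r = -0.81 with Nr4a1 (permutation P = 0.00581, adjusted P = 0.0658) and rho = -0.82 (permutation P = 0.00516, adjusted P = 0.0877). The fibroblast mean, 5 of 5 detected, had r = 0.80 (permutation P = 0.00811, adjusted P = 0.0689) and rho = 0.71 (permutation P = 0.0315, adjusted P = 0.191). Neither passed after adjustment. Without the 2 mice farthest from the Nr4a1 median these were -0.74 and 0.31, and without control 1 and nitrate treated mouse 4 they were -0.74 and 0.79. The clock gene mean, over 15 genes whose own r with Fos ran from -0.71 for Per2 to 0.55 for Arntl, had r = -0.65 with Fos (permutation P = 0.0194, adjusted P = 0.122) and rho = -0.58 (permutation P = 0.0538, adjusted P = 0.191), and r was -0.40 without the 2 mice farthest from the Fos median and -0.74 without control 1 and nitrate treated mouse 4. The adipocyte mean, of which 4 of 8 genes (50%, against 9.00% of all detected probes) were called lower after nitrate, had r = 0.06 with Fos and 0.05 with Nr4a1. These became 0.66 and 0.28 without the 2 mice farthest from the median of each gene, and 0.40 and 0.69 without control 1 and nitrate treated mouse 4. For endothelium r was 0.38 with Fos and -0.15 with Nr4a1, and for macrophages 0.35 and 0.34. For smooth muscle it was -0.05 and 0.32, and for brown adipocytes -0.24 and -0.53. None of these passed after adjustment. Without control 1 and nitrate treated mouse 4 they were 0.77 and 0.37, 0.46 and 0.71, -0.57 and -0.65, and -0.16 and -0.15, in the same order. The part of any of these lists in the spread of the members was not tested.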

How the data were processed

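RNA of the descending aorta of 11 old male mice was measured on single-color arrays, 6 of them controls and 5 given nitrate. The authors deposited spot intensities with quality flags from Feature Extraction 10.7.1.1, background-subtracted and not normalized between arrays, and a table of log2 values. Set against the intensities, that deposited log2 table proved to be quantile normalized with each probe's median over the arrays subtracted, and it served as an alternative. From the intensities, log2 of the processed signal was taken after values under 1 were set to 1. Without control spots and spots flagged as outliers, the spots of a probe were averaged and the arrays quantile normalized. Groups were compared over 23633 detected probes with limma 3.58.1 in R 4.3.3 (lmFit, eBayes), with the paper's limits of P under 0.05 before adjustment and more than a 1.2-fold change. Adjusted P values are Benjamini-Hochberg values over all detected probes. The number of arrays limits the precision.

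All members were named, the called genes of each program list, at most the 8 with the smallest P, and the 8 genes most like Fos. Cyr61, Arc, Ptgs2, Srf, Creb1 and the genes like Nr4a1 were picked with their values in view. Not every gene that this rule names is reported here. The members and lists were chosen with earlier results of these data known. Alternatives covered the scaling between arrays, normexp background correction, adding 16 to the signal, the deposited table, detection rules, flagged spots, prior variance, slide and replicate number as blocks, the test, and each array left out. The analysis of all 36 pairs and the settings without 2 arrays, by scan day and with slide removed were chosen after seeing the data. Relations of gene lists with Fos and Nr4a1 were not planned in advance either. Code was tested on simulated data. Probe positions are those of the files, in mm9. Promoter windows come from RefSeq on GRCm38.p6, of which only the upstream bases were used. Python 3.11.15 with numpy 2.4.6 was used for correlations and motifs.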

Additional observations from a re-analysis of the deposited data

Results flagged for a closer look

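1 of 26 groups of values held a mouse far from the rest by Dixon's criterion, where chance gives about 1 in 20 groups. The mean of the heart muscle markers in control 1 lay apart from the other 5 controls, with a gap of 0.675 of the range of the group. No detected immediate early gene had a mouse that far from the others of its group.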

How the results depend on the processing

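The count of 0 members called held under 14 of 15 alternatives that changed the processing or left out 2 arrays. Not all of these could change it. A limit on adjusted P values is stricter than the main one, and with 1 probe per member, taking all detected probes changed nothing. The count was 1 with a replicate block, where Fosb fell by 0.49, and 0 to 1 when each array was left out. Whether the replicate numbers pair mice is not known. The correlation of deviations between arrays of the same number lay between -0.14 and 0.18, and 1 of the 5 nitrate arrays correlated best with its own number. With the replicate block 5 other rapidly induced genes and 2 feedback regulators were called. The share of all detected probes called is known for the main fit alone, so the counts of other settings have no such share beside them. Other rapidly induced genes called numbered 1 without the detection filter, 0 with the unmoderated test and 5 without the 2 arrays high in heart muscle markers, and 0 to 3 with each array left out. Feedback regulators called numbered 2 with a trended robust prior variance and 1 to 3 with each array left out. Upstream regulators called numbered 0 with normexp background correction, 0 with an offset of 16 and 0 without the 2 arrays, and 0 to 2 with each array left out.

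Of 205 recomputed differences of single members 184 kept direction and side of the threshold, 19 turned direction and 2, both of Fosb, passed. Settings that changed only the detection rule, the prior variance or the test could not alter a difference, only its P value. Their directions were therefore fixed in advance. Without the 2 arrays the differences became 0.057 for Fos, -0.067 for Nr4a1, 0.074 for Ier2, 0.049 for Junb, -0.16 for Atf3 and 0.011 for Egr1. With each array left out they ranged from -0.24 to 0.53 for Atf3, -0.33 to 0.049 for Egr1, -0.14 to 0.33 for Egr2, -0.60 to 0.067 for Fos, -0.26 to 0.024 for Ier2 and -0.21 to 0.42 for Nr4a1. The median SD of the members stayed between 0.62 and 0.82 in nitrate treated mice and between 0.46 and 0.61 in controls. Of the 36 pairs, 19 passed, with 9 to 20 when each array was left out, 11 without the 2 arrays and 9 over the mice of the first scan day. The cause of these changes was not tested. The number of arrays limits these differences, since leaving out 1 mouse turned the direction of 6 of the 9 members.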
